A study of Mus musculus with 6 samples.

Results

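Csf2, Il3, Tnf and Il2 are 4 cytokine genes that activated T cells transcribe, and they were followed here as 4 of the 15473 genes measured in CD4 T cells of the mouse colonic lamina propria, the connective tissue under the gut epithelium. The 4 were taken as a named set of effector cytokines. Single cells had been sorted into 2 gates, tdTomato+GFP+ and tdTomato-GFP-, and sequenced together with their T cell receptors. Both gates came from Foxp3{delta}EGFPiCre/WT mice that also carried R26lsl-tdTomato/wt, and no mice without the inserted allele were compared. Cre and EGFP are both driven by that Foxp3 allele, and Cre turns on tdTomato for good. Foxp3 encodes the transcription factor of regulatory T (Treg) cells and is X-linked, so a heterozygous T cell uses 1 of its 2 alleles, the intact one or the insert, which is taken to give no functional Foxp3 protein. Cells using the insert are found in the tdTomato+GFP+ gate. The tdTomato-GFP- gate mixes conventional T cells with Treg cells of the intact allele. Each gate was run on its own droplet lane, with 3 hashed replicates, and effects of gate and of lane cannot be told apart here.

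Of 18874 cells with a replicate, 8765 were tdTomato+GFP+ (1747, 4610 and 2408 in replicates 1 to 3) and 10109 were tdTomato-GFP- (5159, 3114 and 1836). Transcripts were counted as unique molecular identifiers (UMIs), levels are given as CPM (UMIs scaled to a common library total), and medians per cell were 3771, 3655 and 3501.5 UMIs in tdTomato+GFP+ replicates and 3905, 3778.5 and 3847 in tdTomato-GFP- replicates. At least 1 UMI of Cd3d, Cd3e or Cd3g was found in 98.9% to 99.5% of tdTomato+GFP+ and 98.0% to 98.4% of tdTomato-GFP- cells, and of Cd4 in 79.3% to 80.5% and 66.9% to 69.9%. The gates differed in their T cell types: summed levels of the 8 Th17 markers were 12877 to 17275 CPM in tdTomato+GFP+ replicates and 2296 to 2834 in tdTomato-GFP- replicates, and those of the 7 Th1 markers were 374 to 881 and 1362 to 1460. Those of the 8 Treg markers were 3858 to 4937 CPM in tdTomato+GFP+ replicates and 2488 to 2999 CPM in tdTomato-GFP- replicates. The part of this make-up in the results over all cells was not tested beyond the draw of equal cells per cluster given with them. The lanes shared 174 cell barcodes, 1.54% of the smaller lane. The labels call the 3 samples of a gate triplicates without naming animals, so p-values measure the spread between these samples.

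The 4 genes encode secreted messengers of short-lived mRNAs. Csf2 encodes GM-CSF and Il3 encodes interleukin-3, growth factors of myeloid cells, eosinophils, basophils and mast cells that signal through a shared beta chain. Tnf encodes the inflammatory cytokine TNF, made as a membrane protein and shed by the protease Adam17. Il2 encodes interleukin-2, the T cell growth factor. Conventional T cells make it on activation, whereas Treg cells consume it and Foxp3 represses its transcription. T cell receptor signals reach all 4 genes through NFAT, AP-1 and NF-kB factors.

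All 4 genes lie on the minus strand of GRCm38. Csf2 (ENSMUSG00000018916, 4 exons) spans chr11:54247271-54249667, and Il3 (ENSMUSG00000018914, 5 exons) lies 15635 bases away at chr11:54265303-54267277, in the cytokine cluster that also holds Il4, Il13 and Il5. Tnf (ENSMUSG00000024401, 4 exons) spans chr17:35199381-35202007, with Lta 1157 bases away. Il2 (ENSMUSG00000027720, 4 exons) spans chr3:37120523-37125959, with Il21 96799 bases away. The 250 bases before each start site are printed as the stretch just upstream of the annotated start. They were taken from RefSeq on GRCm38.p6 and run 5′ to 3′ on the gene strand, in the order chr11:54249900-54250149, chr11:54267280-54267529, chr17:35202008-35202257 and chr3:37125955-37126204. Capitals mark matches, on either strand, to GGAAA (the NFAT core, TTTCC where it lies on the other strand), TATAAA (the TATA box) or the NF-kB pattern of GGG, any 5 bases and CC.
Csf2: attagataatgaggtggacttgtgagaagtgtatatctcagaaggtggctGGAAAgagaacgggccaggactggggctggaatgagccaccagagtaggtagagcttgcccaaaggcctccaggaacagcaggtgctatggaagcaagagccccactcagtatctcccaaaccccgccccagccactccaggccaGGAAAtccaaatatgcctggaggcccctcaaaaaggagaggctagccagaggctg
Il3: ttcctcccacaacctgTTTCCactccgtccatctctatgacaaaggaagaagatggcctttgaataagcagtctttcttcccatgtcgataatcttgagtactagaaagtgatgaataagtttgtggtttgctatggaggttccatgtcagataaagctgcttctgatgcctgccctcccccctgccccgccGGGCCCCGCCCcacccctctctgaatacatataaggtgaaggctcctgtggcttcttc
Tnf: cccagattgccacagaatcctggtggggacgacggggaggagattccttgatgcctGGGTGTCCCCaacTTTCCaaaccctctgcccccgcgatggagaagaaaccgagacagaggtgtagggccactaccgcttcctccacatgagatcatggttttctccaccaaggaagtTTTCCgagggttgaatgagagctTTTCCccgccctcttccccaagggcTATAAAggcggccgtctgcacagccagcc
Il2: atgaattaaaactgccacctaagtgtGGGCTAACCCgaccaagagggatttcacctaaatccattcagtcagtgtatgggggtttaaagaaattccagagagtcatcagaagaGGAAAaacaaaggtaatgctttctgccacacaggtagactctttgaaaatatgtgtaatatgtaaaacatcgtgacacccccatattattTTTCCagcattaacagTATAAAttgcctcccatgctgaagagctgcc
The NFAT core occurred 2 times before Csf2, 1 time before Il3, 3 times before Tnf and 2 times before Il2, and 55.6% of all 32851 mouse windows of this length held it. The NF-kB pattern occurred 1 time each before Tnf and Il2 and as 2 overlapping matches before Il3 (45.8% of all windows). TATAAA stood 29 bases before the start of Tnf and 31 before that of Il2 (12.4% of all windows). The AP-1 pattern TGANTCA (6.75% of all windows) was in none of the 4. The RefSeq start of Csf2 lies 232 bases upstream of the GENCODE start, so its window ends where the other annotation still has upstream sequence. The bases between these starts were not searched for matches. These letter matches are descriptions and say nothing of binding in these cells.

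Over all cells of a gate, Tnf and Il2 were lower in each tdTomato+GFP+ replicate than in any tdTomato-GFP- replicate. Tnf passed the unblocked test but not the test with replicate number as a block, whereas Il2 passed the blocked but not the unblocked test. Csf2 did not differ beyond the spread of its replicates, and Il3 was near the limit of detection. Tnf had 43.8, 59.7 and 51.4 CPM in tdTomato+GFP+ replicates, against 74.0, 63.4 and 69.6 CPM in tdTomato-GFP- replicates. The 2 sets of values did not overlap. The log2 fold change was -0.42 (SE 0.11, adjusted p = 0.0303, edgeR's quasi-likelihood test with Benjamini-Hochberg adjustment over 11933 genes, of which 13.4% were called lower). With replicate number as a block the adjusted p of Tnf was 0.132, and the call was also lost without tdTomato+GFP+ replicate 3 (adjusted p = 0.0972), tdTomato-GFP- replicate 1 (0.09996) or tdTomato-GFP- replicate 3 (0.0951).

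Il2 had 8.75, 23.5 and 24.4 CPM in tdTomato+GFP+ replicates, against 32.6, 51.7 and 43.5 CPM in tdTomato-GFP- replicates. Every tdTomato+GFP+ value lay below every tdTomato-GFP- value, as for 21.5% of genes tested. Its log2 fold change of -1.13 (SE 0.42) had an adjusted p of 0.124 in the unblocked fit and 0.0248 when replicate number was a block (fold of -1.23 on the log2 scale). When equal numbers of cells per cluster were drawn from both gates, the fold of Il2 was -0.34 (adjusted p = 0.834) and that of Tnf -0.92 (adjusted p = 0.0328).

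Csf2 had 8.22, 35.6 and 75.4 CPM in tdTomato+GFP+ replicates, against 56.6, 40.2 and 59.3 CPM in tdTomato-GFP- replicates. Its tdTomato+GFP+ replicates thus spread on both sides of all tdTomato-GFP- replicates, and the fold of -0.38 (SE 0.76, adjusted p = 0.786) was 0.06 (adjusted p = 0.954) without tdTomato+GFP+ replicate 1. Il3 gave 1, 21 and 6 UMIs in tdTomato+GFP+ replicates, against 5, 8 and 3 UMIs in tdTomato-GFP- replicates. At these counts it fell under the filter on low counts, and no difference was detectable.

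Shares of cells with at least 1 UMI give each cell the same weight, but at this depth they also depend on how much each cell carries. Of the positive cells of both gates, 48.9% for Csf2, 66.3% for Tnf and 59.9% for Il2 held just 1 UMI. A lower share can thus mean fewer cells with the transcript or less of it per cell. Csf2 was detected in 1.60%, 2.69% and 3.11% of tdTomato+GFP+ cells, against 3.33%, 3.98% and 5.01% of tdTomato-GFP- cells. Tnf was detected in 12.1%, 15.4% and 13.7% of tdTomato+GFP+ cells, against 17.02%, 15.9% and 17.4% of tdTomato-GFP- cells. Il2 was detected in 1.37%, 3.10% and 3.07% of tdTomato+GFP+ cells, against 5.66%, 7.58% and 7.79% of tdTomato-GFP- cells. For these 3 genes the shares of the gates did not overlap, with tdTomato+GFP+ cells lower, a pattern seen for 21% of all genes (exact permutation test, two-sided, p = 0.1 each, the smallest that 3 against 3 allows, not adjusted). After thinning every cell to 2000 UMIs the mean shares of the gates were 1.61% and 2.84% for Csf2, 8.33% and 10.0% for Tnf, and 1.46% and 4.06% for Il2, in the same direction and still without overlap. With 1 cell per clonotype the gates overlapped for all 3 genes, at means of 2.52% and 3.41% for Csf2, 13.7% and 14.9% for Tnf, and 5.55% and 7.18% for Il2. A depth of 2000 UMIs was reached by 1682, 4334 and 2244 tdTomato+GFP+ cells and by 4880, 2892 and 1700 tdTomato-GFP- cells of replicates 1 to 3. Il3 was found in 0.0572%, 0.239% and 0.166% of tdTomato+GFP+ cells, against 0.0582%, 0.161% and 0.163% of tdTomato-GFP- cells, which overlapped.

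Cells expected to hold few of these transcripts were used to look at free RNA in the droplets. Among Cd79a-positive cells without Cd3 (17 tdTomato+GFP+ and 14 tdTomato-GFP- cells) none had a UMI of any of the 4, but so few cells allow shares up to 17.6% and 21.4%. Cluster 9 carries all 7 naive or central memory markers. Its 53 tdTomato+GFP+ cells had no UMI of Csf2, Tnf or Il3, which allows shares of up to 5.66%, and Il2 was detected in 3.77% of them (exact 95% interval 0.460% to 12.98%). That is not below the 2.75% of the whole tdTomato+GFP+ gate, so these cells give no bound on free Il2 RNA in that lane. In the 703 tdTomato-GFP- cells of cluster 9, Csf2 was detected in 0.142%, Tnf in 3.27% and Il2 in 1.85%. No Il3 UMI occurred in them, which allows a share of up to 0.427%, above the shares of Il3 in either gate. Median depth was 3301 UMIs in the tdTomato+GFP+ and 3552 UMIs in the tdTomato-GFP- cells of cluster 9, beside 3632 and 3860 UMIs in the whole gates.

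**Figure D1:**
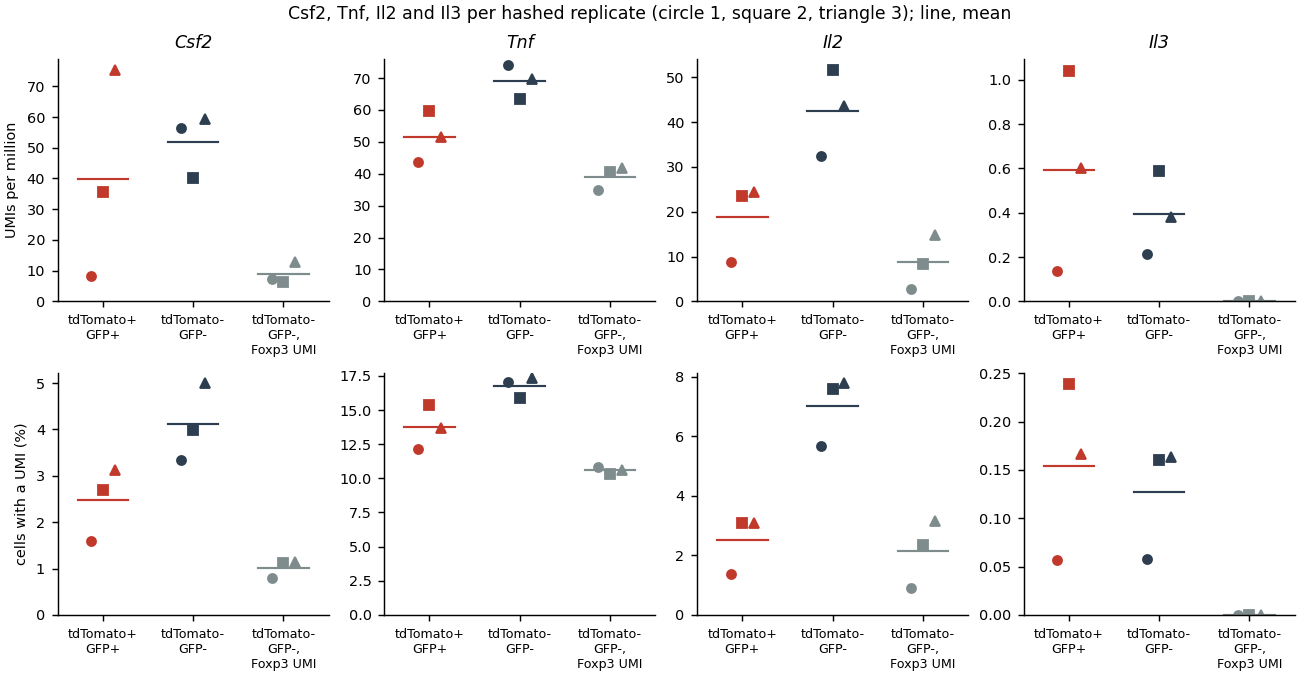
CPM (upper row) and percent of cells with at least 1 UMI (lower row) of Csf2, Tnf, Il2 and Il3. Each point is 1 hashed replicate (circle 1, square 2, triangle 3) and each line is the mean of 3. The rightmost group holds the tdTomato-GFP- cells with a Foxp3 UMI. Tnf lies between 43.8 and 59.7 CPM in tdTomato+GFP+ cells, below all 3 tdTomato-GFP- values and above all 3 values of the rightmost group.

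A second comparison set tdTomato+GFP+ cells against the 2194 tdTomato-GFP- cells with a Foxp3 UMI, the cells closest to Treg cells of the intact allele. Against these cells all 4 cytokines had higher mean levels in tdTomato+GFP+ cells, and of the 3 genes tested only Tnf passed the unblocked test. With replicate number as a block, Il2 passed as well as Tnf. The tdTomato+GFP+ libraries are the same as above, so the 2 comparisons are not independent. Tnf had 43.8, 59.7 and 51.4 CPM in tdTomato+GFP+ replicates, against 34.8, 40.5 and 41.9 CPM in the Foxp3 UMI-positive tdTomato-GFP- cells. The values did not overlap (19.6% of genes were higher in tdTomato+GFP+ cells in this way). The log2 fold change was 0.44 (SE 0.14, edgeR adjusted p = 0.0485, 9.63% of 11020 genes called higher). This call held with the replicate block (adjusted p = 0.0041), but leaving out single replicates gave adjusted p values of 0.0147 to 0.173, and it held only without tdTomato+GFP+ replicate 1. When a Foxp3 UMI was required in both gates, the fold of Tnf was 0.35 (adjusted p = 0.362), that of Il2 0.65 (adjusted p = 0.727) and that of Csf2 1.55 (adjusted p = 0.380).

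Il2 had 8.75, 23.5 and 24.4 CPM in tdTomato+GFP+ replicates, against 2.84, 8.28 and 14.9 CPM in the Foxp3 UMI-positive cells. Within each replicate number the tdTomato+GFP+ value was the higher, while the 2 sets overlapped. The log2 fold change of 1.48 (SE 0.74) had an adjusted p of 0.248, and with the replicate block it was 1.28 with an adjusted p of 4.2e-04. Csf2 had 8.22, 35.6 and 75.4 CPM in tdTomato+GFP+ replicates, against 7.38, 6.44 and 12.9 CPM in the Foxp3 UMI-positive cells, which overlapped. It was detected in 1.60%, 2.69% and 3.11% of tdTomato+GFP+ cells, against 0.799%, 1.11% and 1.15% of Foxp3 UMI-positive cells. Its log2 fold change was 2.33 (SE 1.09, adjusted p = 0.232), and with at most 3 UMIs counted per cell it was 1.37 (adjusted p = 0.0247). The shares of Csf2 did not overlap, with tdTomato+GFP+ cells higher, as for 11.7% of genes. Il3 had 1, 21 and 6 UMIs in tdTomato+GFP+ replicates and no UMI in the 2194 Foxp3 UMI-positive cells, which allows a share of up to 0.137%. Its level in tdTomato+GFP+ replicate 1 was 0.135 CPM, below the 0.299 CPM that a floor of 3 counts gives in the Foxp3 UMI-positive cells, and no fold is given.

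Cells were then compared inside the authors' clusters, 11 of which had at least 20 cells in each replicate. Cluster 0 carries Th2 markers (7 of 7) and clusters 1, 2 and 3 are Th17-like. Cluster 5 carries 8 of 8 Treg and 5 of 7 Th2 markers, and cluster 6 has 5 of 7 Th1 markers. Cluster 7 has 7 of 7 Tfh and 5 of 7 naive or central memory markers. Cluster 4 has 4 of 7 Th2 markers and is called by its number. Il2 is among the 10 leading genes of cluster 0 and Csf2 among those of cluster 4, so their high levels there are no finding. The comparisons are those of the gates within a cluster.

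Tnf showed the same direction throughout: its mean level was lower in tdTomato+GFP+ cells in 11 of 11 clusters, and in 10 of them the replicates of the gates did not overlap. Among the genes tested in each cluster 9.9%, 12.4%, 10.7%, 11.7%, 12.3%, 9.97%, 7.54%, 8.06%, 10.4% and 10.8% were lower in this way in clusters 0, 1, 2, 3, 5, 6, 7, 8, 10 and 11. In clusters 7 and 11 Tnf was not among these genes, and its tdTomato+GFP+ levels there rest on 5 and 18 UMIs. In cluster 5 its tdTomato+GFP+ levels rest on 2, 7 and 3 UMIs, and the shares of cells with Tnf overlapped. By share of cells, Tnf was lower without overlap in 8 of 11 clusters, and in 6 after thinning to 2000 UMIs. In clusters 0, 1, 2, 6 and 11 such shares were seen for 9.76%, 9.2%, 11.5%, 6.86% and 6.39% of genes. In cluster 2 Tnf had 62.4, 71.5 and 54.2 CPM in tdTomato+GFP+ replicates, against 104, 106 and 129 CPM in tdTomato-GFP- replicates. In cluster 3 it had 41.2, 64.4 and 70.4 CPM in tdTomato+GFP+ replicates, against 121, 158 and 111 CPM in tdTomato-GFP- replicates. In cluster 6 it had 81.0, 46.2 and 55.4 CPM in tdTomato+GFP+ replicates, against 131, 104 and 114 CPM in tdTomato-GFP- replicates. In these 3 clusters Tnf fell: the log2 fold changes were -0.82 (SE 0.14, adjusted p = 5.17e-04, 2.75% of genes called lower), -1.18 (SE 0.18, adjusted p = 4.68e-04, 3.33%) and -1.10 (SE 0.16, adjusted p = 5.76e-05, 3.2%) by edgeR. All 3 calls held without any single replicate and with the replicate block. The other 6 clusters in which Tnf was tested gave folds of -1.96 to -0.42 that did not pass (1.74%, 3.88%, 0.921%, 2.2%, 0.456% and 2.08% of genes called lower in clusters 0, 1, 4, 5, 8 and 10), and it was too low for a test in clusters 7 and 11. Cluster 4 was the one with overlapping replicates, with 37.3, 71.8 and 54.0 CPM in tdTomato+GFP+ replicates, against 91.0, 79.1 and 53.6 CPM in tdTomato-GFP- replicates. The smallest adjusted p of a difference between the Tnf effect of 1 cluster and the mean of the others was 0.0985, in cluster 1 (-1.10, edgeR interaction test, 1.89% of genes called).

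Csf2 went in different directions by cluster. In the Th17-like clusters its level was lower in tdTomato+GFP+ cells: in cluster 1 it had 4.16, 7.28 and 21.3 CPM in tdTomato+GFP+ replicates, against 275, 40.8 and 86.4 CPM in tdTomato-GFP- replicates. In cluster 2 it had 16.1, 12.2 and 4.61 CPM in tdTomato+GFP+ replicates, against 48.6, 61.0 and 138 CPM in tdTomato-GFP- replicates. In cluster 3 it had 4.41, 6.91 and 7.04 CPM in tdTomato+GFP+ replicates, against 18.01, 77.9 and 11.1 CPM in tdTomato-GFP- replicates. In none of the 3 clusters did the levels of the gates overlap, as for 12.4%, 10.7% and 11.7% of the genes tested. In cluster 3 the 11.1 CPM of tdTomato-GFP- replicate 3 came from 3 UMIs of 1 cell. Shares of cells with Csf2 overlapped in cluster 3, at 1.19%, 1.39% and 2.40% of tdTomato+GFP+ cells against 4.23%, 8.60% and 1.69% of tdTomato-GFP- cells. The log2 fold changes of -4.08 (SE 0.95, adjusted p = 0.115), -2.81 (SE 0.60, adjusted p = 0.0903) and -2.45 (SE 0.72, adjusted p = 0.142) did not pass edgeR's test after adjustment, although 3 of the 7 clusters tested had an unadjusted p below 0.05. Of the 171 UMIs behind the 275 CPM of cluster 1, 133 came from 1 cell, and without that replicate the fold was -2.67 (adjusted p = 0.326). Without tdTomato-GFP- replicate 2 the fold of cluster 3 was -1.39 (adjusted p = 0.145). The fold of cluster 2 passed without tdTomato-GFP- replicate 1 (-3.20, adjusted p = 0.0481) and without tdTomato-GFP- replicate 3 (-2.33, adjusted p = 3.23e-04), and that of cluster 3 without tdTomato-GFP- replicate 1 (-3.00, adjusted p = 0.0349). That of cluster 3 also passed with the replicate block (adjusted p = 3.87e-04), and DESeq2 called all 3 (adjusted p of 0.00626, 6.35e-04 and 0.00105).

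In cluster 5 the order was turned round. Csf2 had 10.6, 88.5 and 570 CPM in tdTomato+GFP+ replicates, against 7.48, 4.42 and 6.98 CPM in tdTomato-GFP- replicates, and it was detected in 4.17%, 5.00% and 6.90% of tdTomato+GFP+ cells, against 0.639%, 1.03% and 0.873% of tdTomato-GFP- cells. Both measures were higher in every tdTomato+GFP+ replicate, as for 10.4% of the genes tested in cluster 5 by level, which do not include Csf2. For the share it was 5.67% of all genes with a UMI there. The values rest on few cells: the tdTomato+GFP+ cells of cluster 5 numbered 24, 80 and 58, and 1, 4 and 4 of them had a Csf2 UMI. Csf2 was filtered out of the fit of cluster 5 alone. In one fit over all 11 clusters its gate effect in cluster 5 differed from the mean of the others by 6.65 on the log2 scale (SE 1.37, edgeR interaction test, adjusted p = 0.00146, 3.88% of 9647 genes called). The difference kept its direction without each replicate in turn (5.08 to 7.43), but its adjusted p was 0.373 without tdTomato+GFP+ replicate 3, 0.114 without tdTomato-GFP- replicate 1 and 0.147 without tdTomato-GFP- replicate 3. With at most 3 UMIs counted per cell it was 3.80 (adjusted p = 0.00532).

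In both gates clusters 0 and 4 held the most Il2 UMIs. Cluster 0 held 49.9% of those of tdTomato+GFP+ cells and 53.9% of those of tdTomato-GFP- cells, and cluster 4 held 16.4% and 17.6%. Of the cells of these gates, cluster 0 held 9.99% and 19.9%, and cluster 4 held 4.83% and 12.8%. The Il2 level in cluster 0 was 62.9, 112 and 98.5 CPM in tdTomato+GFP+ replicates, against 87.8, 153 and 81.2 CPM in tdTomato-GFP- replicates, which overlapped. The share of cells with Il2 was 12.2%, 10.5% and 9.15% in tdTomato+GFP+ replicates of cluster 0, against 13.8%, 17.5% and 14.6% in tdTomato-GFP- replicates, without overlap (9.76% of genes were lower in this way). Over the 11 clusters the share of Il2 was lower without overlap in 5, and besides cluster 0 these were clusters 1, 2, 6 and 11 (9.2%, 11.5%, 6.86% and 6.39% of genes). Clusters 1 and 3, both Th17-like, held almost no Il2, with 17 and 3 UMIs in 2096 and 1460 tdTomato+GFP+ cells and 5 and 1 UMIs in 273 and 341 tdTomato-GFP- cells. Of the 6 clusters where Il2 was tested with edgeR, 0 had an unadjusted p below 0.05, and DESeq2 gave 1 with an unadjusted and 0 with an adjusted p below it. In cluster 5 Il2 had 0, 30.6 and 119 CPM in tdTomato+GFP+ replicates, against 5.44, 6.07 and 41.9 CPM in tdTomato-GFP- replicates (log2 fold change 2.35, adjusted p = 0.541, and 1.66 with an adjusted p of 0.00874 with the replicate block).

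Il3 UMIs were found in clusters 0, 4, 5, 8 and 10 and in no other. Cluster 4 gave 0, 15 and 4 UMIs in tdTomato+GFP+ replicates, against 2, 0 and 0 UMIs in tdTomato-GFP- replicates, from 7 of 423 and 1 of 1295 cells. Of the 15 UMIs, 8 came from a single cell. Il3 gave no UMI in the 5155 tdTomato+GFP+ cells of clusters 1, 2 and 3, which allows a share of up to 0.0582%.

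**Figure D2:**
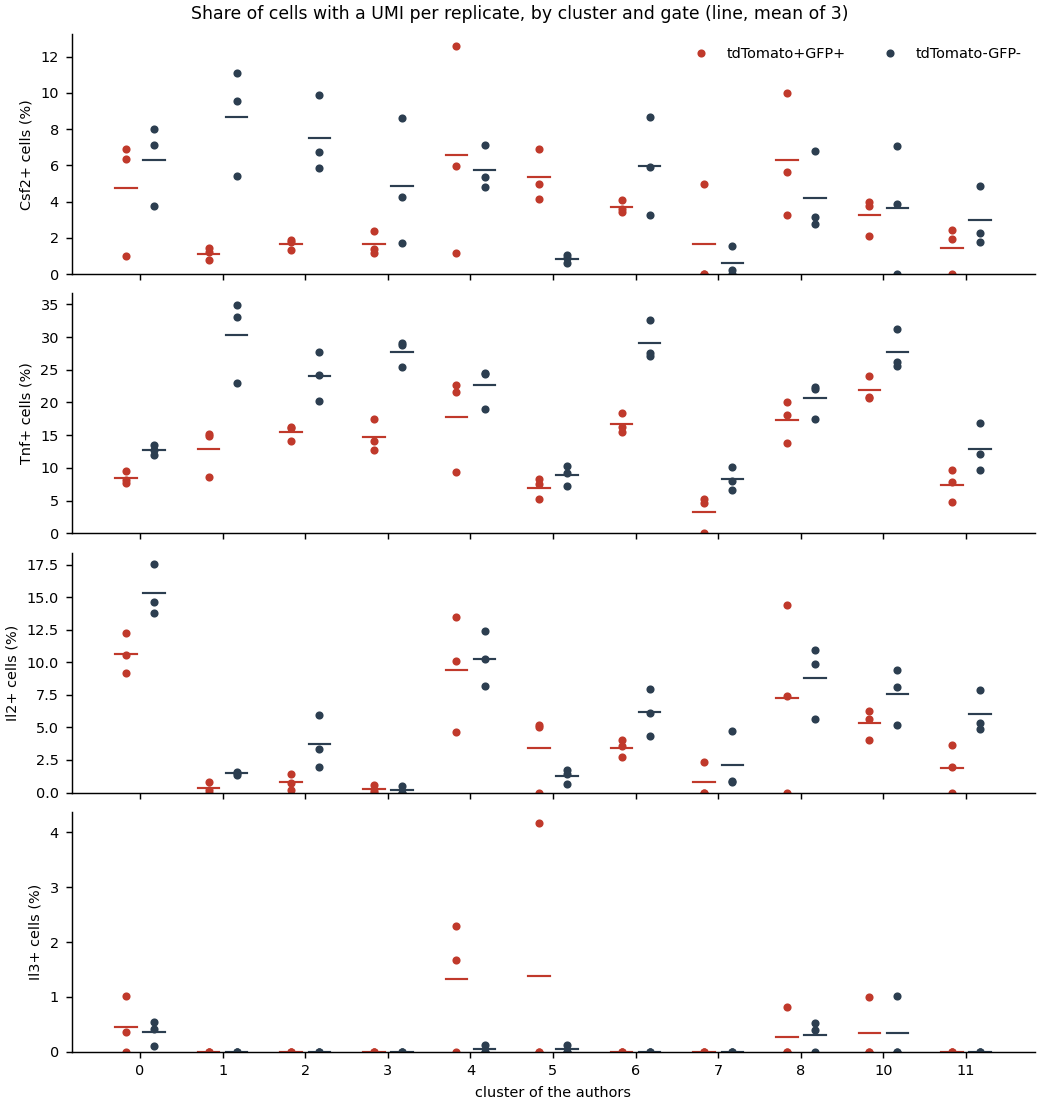
Percent of cells with at least 1 UMI of Csf2, Tnf, Il2 and Il3 in the 11 clusters with at least 20 cells in each replicate. Each point is 1 hashed replicate, tdTomato+GFP+ left of tdTomato-GFP- in each cluster, and each line is the mean of 3; Tnf is lower in tdTomato+GFP+ cells by its mean in every cluster, whereas Csf2 is higher in cluster 5.

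**Figure D3:**
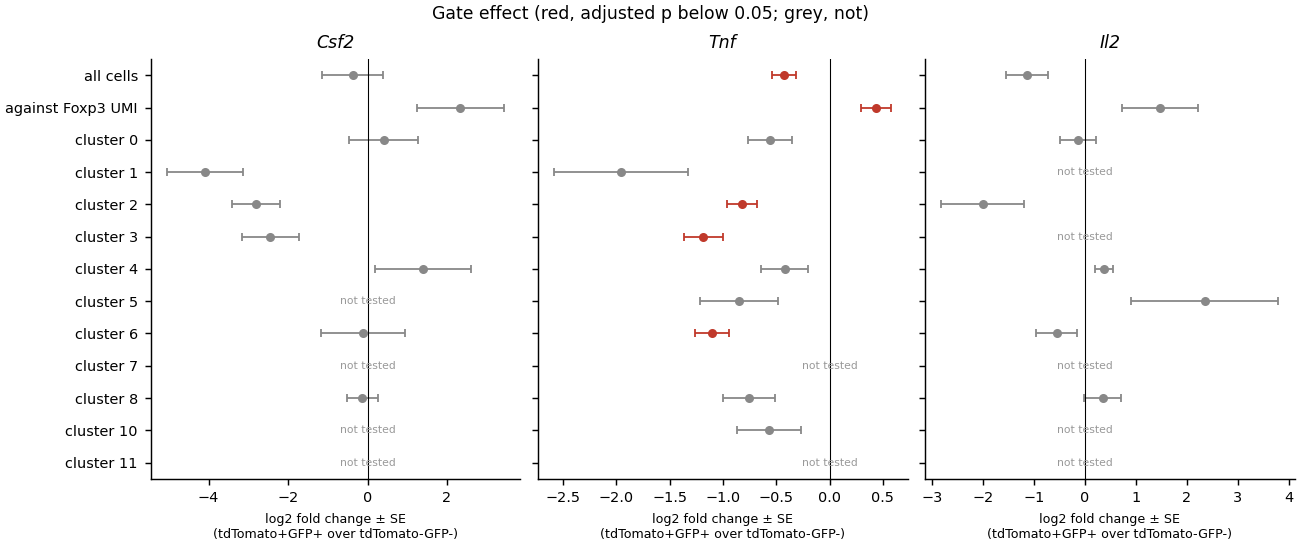
Log2 fold change between the gates (positive where tdTomato+GFP+ cells are higher) for Csf2, Tnf and Il2, over all cells, against Foxp3 UMI-positive tdTomato-GFP- cells, and in each cluster. Bars are 1 standard error, worked back from the fold and the F statistic of its test. Red points have an adjusted p below 0.05 in edgeR's quasi-likelihood test; these are 5 Tnf values, of which only that against Foxp3 UMI-positive cells is above 0.

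The 4 genes differed in how their transcripts were spread over cells. The 3865 Csf2 UMIs came from 615 cells, and 31 of these held 50% of them. A tdTomato+GFP+ cell of replicate 2 held 261 Csf2 UMIs, next to 83 UMIs of Il13 and 22 of Il4. A tdTomato-GFP- cell of replicate 1 held 133 Csf2 UMIs together with 51 of Tnf, 292 of Il17a and 22 of Ifng. For Il2, 85 of 912 positive cells held 50% of 2588 UMIs, and for Tnf 672 of 2941 held 50% of 5178. The highest single cells had 99 UMIs of Il2 and 51 of Tnf. In tdTomato+GFP+ cells the 10 highest cells held 57.2% of all Csf2 UMIs, and in tdTomato-GFP- cells 32.3%. CPM of Csf2 in a replicate therefore rests on a few cells, which its shares do not.

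**Figure D4:**
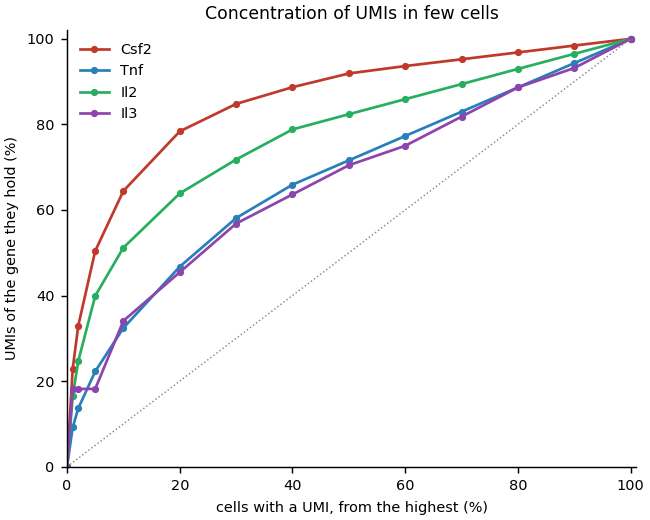
Percent of all UMIs of a gene (vertical) held by its positive cells, counted from the cell with the most UMIs (horizontal, percent of positive cells), both gates together. The dotted line would be equal UMIs in every positive cell; the top 10% of positive cells held 64.5% of Csf2, 51.2% of Il2, 32.4% of Tnf and 34.1% of Il3 UMIs.

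Most cells with one of these transcripts had no other of the 4. Of 18874 cells, 3571 had UMIs of 1 gene, 405 of 2, 34 of 3 and 3 of all 4, and 18.2% of tdTomato+GFP+ and 23.9% of tdTomato-GFP- cells had any. To see whether the transcripts met in the same cells more often than their frequencies give, the number of cells with both was set against the number expected if they were independent inside each cluster, replicate and quartile of depth. Csf2 and Tnf were found together in 202 cells with 124 expected (ratio 1.63), Csf2 and Il2 in 106 with 58.4 expected (1.82), and Tnf and Il2 in 195 with 166 expected (1.17). Each of these ratios was above 1 in 6 of 6 replicates. For Tnf and Il2 this fell to 5 of 6 with 1 cell per clonotype and to 3 of 6 when 2 UMIs of each gene were asked for, where tdTomato+GFP+ cells had a ratio of 2.29 and tdTomato-GFP- cells one of 0.965. The ratios in tdTomato+GFP+ and tdTomato-GFP- cells were 1.699 and 1.61 for Csf2 and Tnf, 1.95 and 1.77 for Csf2 and Il2, and 1.35 and 1.12 for Tnf and Il2. For Tnf and Il2 the ratios were 1.98, 1.32 and 1.19 in tdTomato+GFP+ replicates, against 1.16, 1.08 and 1.11 in tdTomato-GFP- replicates, which did not overlap. For the other 2 pairs the replicates of the gates overlapped. An exact permutation test of 3 against 3 cannot give a p below 0.1, and no other test of these differences was run. Il3 shared 8 cells with Csf2 (ratio 4.09), 9 with Il2 (2.25) and 5 with Tnf (1.05).

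Among 20 other cytokine genes, some ratios lay well above 1 and some below it. Cd40lg, the CD40 ligand, was above 1 in 6 of 6 replicates with Csf2 (1.203), Tnf (1.13) and Il2 (1.28). Csf2 was found with the type 2 cytokines Il5 and Il13 at 2.59 and 2.40 times the expected number of cells, with Lif at 2.36 and with Il4 at 1.58. Il2 was found with Lif at 2.19, Il5 at 1.78, Il13 at 1.74 and Il4 at 1.62 times the expected number. With Il17a the ratio was 1.01 for Csf2 and 0.718 for Il2, and with the anti-inflammatory cytokine Il10 it was 0.537 and 0.386. The Il17a ratio of Csf2 pooled gates that differed in direction. It was 0.906 for the tdTomato+GFP+ gate (above 1 in 0 of 3 replicates) but 1.13 for the tdTomato-GFP- gate (3 of 3). The Il10 ratio of Csf2 was below 1 on both sides, at 0.796 for tdTomato+GFP+ against 0.267 for tdTomato-GFP-. These differences between the gates were not tested. Tnf was found with Ifng at 1.29, Il21 at 1.28, Ccl4 at 1.27 and Lta at 1.26, but with Il4 at 0.903 and Il13 at 0.888 times the expected number. Csf2 was likewise above 1 with Lta (1.28) and Ifng (1.16), each in 5 of 6 replicates, and below 1 with Il21 (0.781) and Ccl4 (0.768). Of the 27 cells with an Il3 UMI, 26 also had Il4 (9.61 expected), 25 Cd40lg (17.4), 20 Il13 (5.69) and 14 Lif (2.16). None had Ifng (4.30 expected). The cells ranked 1 and 4 by Il3 UMIs held 20467 and 20574 UMIs in all, beside a median of 3632 in their gate, and depth within a quartile was not matched. These ratios are descriptions of the cells in hand, since all pairs share libraries and clusters.

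**Figure D5:**
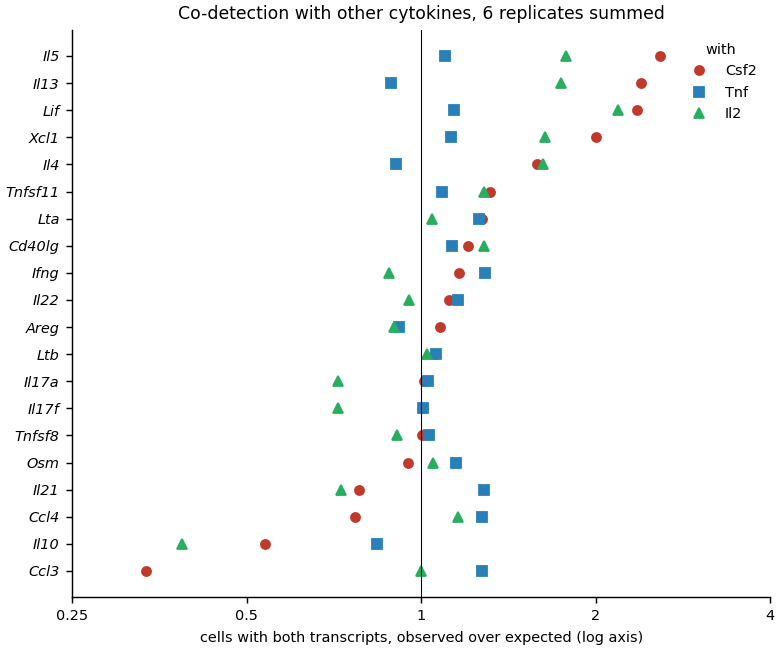
Cells with both transcripts over the number expected from independence inside cluster, replicate and depth quartile (horizontal, log axis), for Csf2 (circles), Tnf (squares) and Il2 (triangles) with 20 other cytokine genes, both gates together. The vertical line marks a ratio of 1; Il5 with Csf2 stands at 2.59 and Il10 with Il2 at 0.386.

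Receptor sequences placed cells in clones, cells of 1 replicate with the same alpha and beta junctions. In tdTomato+GFP+ replicates Il2 was detected in 6.60%, 8.58% and 6.44% of cells with a unique receptor, in 3.93%, 3.86% and 2.504% of cells in clones of 2 to 9 cells, and in 0.219%, 0.821% and 1.48% of cells in clones of 10 or more. In tdTomato-GFP- replicates the shares were 4.71%, 8.40% and 7.22%, then 6.26%, 7.48% and 7.93%, then 6.41%, 4.71% and 7.51%. The shares in tdTomato+GFP+ cells thus lay lower in each step of clone size in all 3 replicates, while those of tdTomato-GFP- cells had no such order.

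Tnf was detected in a mean of 15.0%, 13.1% and 13.4% of tdTomato+GFP+ cells in the 3 sizes of clone, against 13.7%, 17.99% and 24.9% of tdTomato-GFP- cells. Csf2 was detected in a mean of 2.63%, 2.66% and 1.72% of tdTomato+GFP+ cells, against 3.30%, 3.80% and 6.29% of tdTomato-GFP- cells. For both genes the tdTomato-GFP- means were thus highest in the largest clones. Clone size was looked at after the gate values were known and was not tested, and clusters take different shares of large and small clones. The clone with the most Csf2 UMIs in the tdTomato+GFP+ gate had 5 cells, of which 4 were positive, and held 283 of 1531 UMIs (18.5%). In the tdTomato-GFP- gate the leading clone held 197 of 2334 UMIs (8.44%), all from 1 cell.

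Of 9 receptor genes of these cytokines 7 were tested over all cells, and 1 was lower in tdTomato+GFP+ cells, beside 13.4% of all genes: Tnfrsf1a, the TNF receptor with a death domain. It averaged 38.9 ± 2.87 CPM in tdTomato+GFP+ replicates, against 56.97 ± 7.005 CPM in tdTomato-GFP- replicates (SD, n = 3 each, log2 fold change -0.56, edgeR adjusted p = 0.00331). The median log2 fold change of the receptors was 0.001, beside -0.002 over all genes. Against Foxp3 UMI-positive tdTomato-GFP- cells 4 of the 7 fell, Il3ra (-0.85), Tnfrsf1b (-0.71), Il2ra (-1.02) and Tnfrsf1a (-0.54), where 12.3% of genes were called lower. The median of the 7 was -0.54, beside -0.006 over all genes. Il2ra, the chain that gives the IL-2 receptor its high affinity, averaged 109 ± 15.7 CPM in tdTomato+GFP+ replicates, against 221 ± 38.8 CPM in Foxp3 UMI-positive cells (SD, n = 3 each). These 4 were named after their values were seen.

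Of 7 repressors of Il2, 3 rose and 3 fell in tdTomato+GFP+ cells over all cells (median log2 fold change 0.13). Prdm1, which encodes Blimp-1, averaged 142 ± 4.45 CPM in tdTomato+GFP+ replicates, against 74.2 ± 5.31 CPM in tdTomato-GFP- replicates (SD, n = 3 each, log2 fold change 0.92). Ikzf3, which encodes Aiolos, rose by 1.07 and Foxp1 by 0.54 on the log2 scale, and Zeb1 fell by 0.74. Of 10 listed regulators of mRNA, not all of which act in decay, 1 rose and 3 fell. Hnrnpll rose by 0.64, while Zfp36l2 fell by 1.28, Arid5a by 1.01 and Zc3h12d by 0.75 on the log2 scale (median of the 10 -0.07). Zfp36l2 encodes a protein that marks AU-rich mRNAs for decay, whereas Arid5a is known to stabilise cytokine mRNAs. Of 26 transcription factors of cytokine genes 9 rose and 3 fell, among them Irf4 (0.54), Egr2 (-0.92) and Tbx21 (-1.19), with a median of 0.04 over the 26. Tbx21 encodes T-bet, the factor of Th1 cells. The calls in these lists are read against 13% of genes called higher and 13.4% called lower.

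Receptors that induce these cytokines, genes of TNF shedding and signalling and genes of STAT5 signalling moved in both directions, and 13% of all genes were called higher and 13.4% lower. Of 12 inducing receptors 2 rose and 3 fell, with Il6st (-1.76), Il6ra (-1.41), Il7r (-0.57) and Il12rb1 (0.49) at the smallest p (median of the 12 -0.04). Of 10 genes of TNF processing 3 rose and 1 fell: the NF-kB inhibitor Nfkbia (0.53), the TNF-shedding protease Adam17 (0.25) and its partner Rhbdf2 (0.25) rose, and Traf1 fell by 0.24 on the log2 scale (median of the 10 -0.01). Of 12 genes of STAT5 signalling, the pathway below the IL-2 and GM-CSF receptors, 2 rose and 6 fell (median -0.18). Socs3 fell by 1.24, Bcl2 by 1.00 and Socs1 by 0.98, and Socs2 rose by 1.51 on the log2 scale. Of 20 other effector cytokines 3 rose and 7 fell (median -0.21), with Tnfsf8 (0.93) and Il17a (2.64) higher and Ltb (-0.57) and Ifng (-1.54) lower. All folds in these lists are edgeR's over all cells, with adjusted p below 0.05.

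Of the 8 genes listed around Csf2 and Il3, 6 were tested and none passed, among them Il13 (0.48, adjusted p = 0.731), Il4 (0.50, adjusted p = 0.805) and Il5 (0.16, adjusted p = 0.888), where 26.4% of genes were called by edgeR. Next to Tnf, Ltb fell (-0.57), whereas Lta did not (-0.29, adjusted p = 0.171). Next to Il2, Il21 did not pass over all cells (-0.20, adjusted p = 0.723). It averaged 42.8 ± 13.3 CPM in tdTomato+GFP+ replicates, against 9.22 ± 4.68 CPM in Foxp3 UMI-positive cells (SD, n = 3 each, 2.10, adjusted p = 0.0179). How strand was used in counting is not given in the sources used here, so reads of overlapping genes cannot be told apart.

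Over 22 means, 11 clusters in each of 2 gates, the genes most like each cytokine by Pearson's r of log2(CPM + 20) were as follows. Those of Csf2 were Ero1l (0.775), Cd40lg (0.738), Rgcc (0.727) and Il13 (0.723). Those of Tnf were Ifng (0.957), Ly6g5b (0.852), Litaf (0.850) and Sytl3 (0.849). Those of Il2 were Eef2 (0.884), Il9r (0.860), Rpl38 (0.849) and Atp8a2 (0.847). Between members, r was 0.640 for Csf2 and Il2, 0.293 for Csf2 and Tnf, and -0.132 for Tnf and Il2. The points share libraries and depth, so these are descriptions. Il3 reached 6.57 CPM at most, under the 20 CPM asked of other genes, and its pattern is not compared.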

How the data were processed

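Gene counts, per the deposited tables, are whole UMI counts per cell and gene. The deposited hashtag fraction is the share of a cell's hashtag counts held by its main hashtag. The tools named are Cell Ranger and Scanpy 1.7.2, and the builds mm10 and GRCm38, per the submitters' processing notes. The labels' protocols name 3′ v3 or 5′ v2 chemistry. The filters, clustering settings and hashtag rule are not given in the sources used here.

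Of 23595 cells, 4721 had no hashed replicate and entered no comparison, and 216 assigned cells without a cluster were left out of results by cluster. Hashtag features, 43.8% of UMIs, were removed. No doublet caller was run. Replicate totals were 7424984 to 20153550 UMIs in the tdTomato+GFP+ gate and 7925662 to 23289046 in the tdTomato-GFP- gate.

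UMIs were summed per replicate and tested with edgeR 4.0.16 in R 4.3.3 (robust glmQLFit, glmQLFTest, TMM, filterByExpr at a minimum count of 10; tests were two-sided), with Benjamini-Hochberg adjustment over all genes tested and a threshold of 0.05. Printed CPM of the 4 cytokines are UMIs over the replicate's total, without TMM factors. Differences of the gate effect between clusters came from 1 edgeR fit over cluster sums with an interaction term. Each SE of an edgeR fold was worked back from its test, as the size of the log2 fold over the square root of the F statistic. DESeq2 1.42.0, other scalings and filters, a replicate block, single replicates left out, and cell selections were alternatives. Scripts were tested on simulated data. Python 3.11.15, scipy 1.17.1 and matplotlib 3.10.9 did the rest. Floors stand for 3 counts and, like the exact Clopper-Pearson 95% intervals, cover counting error only.

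Same-numbered replicates of the gates deviated together (correlations of 0.264, 0.148 and 0.275) and shared 19, 23 and 33 clones, so the numbers may pair the samples. Only the fits with the replicate block used this pairing. The main edgeR fits, the interaction fit and the permutation tests did not use it. Members, lists, markers and tests were chosen with earlier results of these data known. Named genes are the members, those of each list past the threshold over all cells (at most 4, smallest p), the neighbours, and the 4 genes most alike. A gene that this rule names is not reported here.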

Additional observations from a re-analysis of the deposited data

Results flagged for a closer look

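The gate effect on Csf2 in cluster 5 differed from its mean in the other clusters by 6.65 on the log2 scale (SE 1.37, edgeR interaction test, adjusted p = 0.00146), which is why it stands here. Of its 166 tdTomato+GFP+ UMIs, 113 came from 1 cell of replicate 3, and 9 tdTomato+GFP+ cells had any. The difference was 5.08 (adjusted p = 0.373) without tdTomato+GFP+ replicate 3, 6.66 (adjusted p = 0.114) without tdTomato-GFP- replicate 1 and 6.27 (adjusted p = 0.147) without tdTomato-GFP- replicate 3, and it passed without each of the other 3 replicates.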

How the results depend on the processing

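Over all cells, the Tnf fold of -0.42 was -0.43 with the replicate block, -0.42 against a minimum of 1.5-fold (adjusted p = 1), -0.21 with 1 cell per clonotype (0.289) and -0.26 with a main hashtag share of at least 0.95 (0.212), none of which passed by edgeR; leaving out replicates gave -0.56 to -0.32. The Il2 fold passed with the replicate block (-1.23), without robust estimation (-1.13) and with at most 3 UMIs per cell (-1.29), a setting chosen after seeing the data, and was -1.35 to -0.84 without single replicates. Csf2 gave -1.14 to 0.0620 without single replicates. The hashtag share of at least 0.95 left only 40 cells in tdTomato+GFP+ replicate 1, and 3973 and 627 in replicates 2 and 3. It left 1188, 2680 and 585 tdTomato-GFP- cells, of which 358, 624 and 125 had a Foxp3 UMI. Against Foxp3 UMI-positive cells, Csf2 passed with the hashtag share of 0.95 (1.95) and at most 3 UMIs (1.37), with 1.53 to 2.78 without single replicates. Tnf did not pass with DESeq2 (0.44), a 1.5-fold minimum (0.44), no robust estimation (0.44), 1 cell per clonotype (0.33), the hashtag share (0.51), a Foxp3 UMI in both gates (0.35) or without cluster 5 (0.25), with 0.31 to 0.54 without single replicates. Il2 passed with the replicate block (1.28) and 1 cell per clonotype (3.01), but was 0.65 with a Foxp3 UMI in both gates, 0.89 without cluster 5 and 0.75 with at most 3 UMIs, none called, and 0.84 to 1.93 without single replicates. Csf2 was 1.55 and 1.42 in the first pair of these settings, neither called. The causes were not tested.

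Within clusters, Csf2 was called in 3 with DESeq2, 2 with no filter, 1 with the block, 3 with at most 3 UMIs and 0 to 2 without single replicates, against 0 as reported. Il2 was called in 3 with no filter, 1 with the block, 1 with at most 3 UMIs and 0 to 1 without single replicates, against 0. Il3 was called in 1 with no filter, and Tnf in 3 to 4 without single replicates. The block changed no other call. Signs of uncalled Csf2 folds turned in cluster 0 (-0.00302 with DESeq2, -0.0877 with at most 3 UMIs, -1.71 to 0.84 without single replicates), cluster 4 (-0.58 to 1.92), cluster 6 (0.20 with DESeq2, 0.21 with the block, -1.38 to 1.22) and cluster 8 (0.25 with at most 3 UMIs, -0.37 to 0.38), and those of Il2 in cluster 0 (-0.33 to 0.23) and cluster 8 (-0.17 to 0.55). The cluster 5 difference of Il2, 3.34 and not called, was 3.17 and called with at most 3 UMIs and 2.13 to 4.51 without single replicates. That of Csf2 was 5.08 to 7.43.

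Differences in shares, in percentage points, shrank with depth or clones and kept their sign for Csf2 (-1.64, -0.803 at 1000 UMIs, -2.03 to -1.19 without single replicates), Tnf (-3.02, -1.72 at 2000 UMIs, -1.02 at 1000, -1.23 with 1 cell per clonotype, -3.83 to -2.22) and Il2 (-4.49, -2.60 at 2000, -1.47 at 1000, -1.599 for 2 or more UMIs, -1.63 with 1 cell per clonotype, -5.17 to -3.92). That of Il3 (0.0266) was -0.00699 at 2000, -0.00358 at 1000, -0.00603 for 2 or more UMIs, -0.0396 with 1 cell per clonotype and -0.0157 to 0.0750 without single replicates. Co-detection of Csf2 and Il2 was 3.23 within replicates only, of Csf2 and Il3 10.7 for 2 UMIs, of Il2 and Il3 7.14 and 5.65 in these settings, and of Tnf and Il3 0.749 with 1 cell per clonotype. Without single replicates the ratios were 1.58 to 1.68 (Csf2 and Tnf), 1.63 to 2.04 (Csf2 and Il2), 3.22 to 4.58 (Csf2 and Il3), 1.15 to 1.21 (Tnf and Il2), 1.71 to 2.62 (Il2 and Il3) and 0.711 to 1.23 (Tnf and Il3). Over all cells 1550 genes were called higher and 1603 lower, against 188 and 286 with the 1.5-fold minimum, 669 and 768 with 1 cell per clonotype, 642 and 792 with the hashtag share, and 99 and 188 with equal cells per cluster. Il3, with 28 and 16 UMIs in the gates, is limited by depth in every comparison.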

Other observations

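Cells that no hashtag assigned to a replicate (2504 tdTomato+GFP+ and 2217 tdTomato-GFP- cells) are in no comparison. Their median depth was 7675.5 UMIs in tdTomato+GFP+ and 7103 UMIs in tdTomato-GFP- cells. Csf2 was found in 5.11% of these tdTomato+GFP+ cells (exact 95% interval 4.28% to 6.05%) and 6.31% of these tdTomato-GFP- cells (5.34% to 7.41%). Il2 was found in 5.31% (4.47% to 6.26%) of these tdTomato+GFP+ cells and 10.5% (9.26% to 11.9%) of these tdTomato-GFP- cells. Tnf was found in 27.3% (25.6% to 29.1%) of these tdTomato+GFP+ cells and 25.03% (23.2% to 26.9%) of these tdTomato-GFP- cells, and its level was 53.9 CPM in the tdTomato+GFP+ and 64.96 CPM in the tdTomato-GFP- cells.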
